A study of Mus musculus with 9 samples.

Results

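Lung endoderm transcription factors are described here as 10 genes: Nkx2-1, Foxa1, Foxa2, Irx1, Irx2, Irx3, Foxp1, Foxp2, Foxp4 and Gata6. They were found by gene symbol among the 55286 genes of a bulk RNA-seq series on mouse embryonic lung, and all 10 were measured in all 9 libraries. The 3 groups held 3 libraries each. Explants of wild-type lung taken at E11.5, an early stage of airway branching, were cultured for 72 h with EPZ5676 or as controls, and freshly taken E11.5 lungs served as the start point. EPZ5676 (pinometostat) is a small molecule that inhibits DOT1L, the methyltransferase of lysine 79 on histone H3. Its dose and the culture medium are not given in the sources used here. Whole explants were profiled, although the labels call the material primary lung cells, and no label ties a library to an embryo or a culture of its own. The p-values therefore refer to the spread among the libraries, part of which may be technical.

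The lung arises from a patch of ventral foregut endoderm that switches on Nkx2-1, the homeobox gene that marks lung and thyroid primordia. Foxa1 and Foxa2 encode forkhead pioneer factors that open chromatin in foregut endoderm, and Gata6 encodes a zinc finger factor of endoderm and heart. The proteins of Foxp1, Foxp2 and Foxp4 are forkhead repressors that restrain alternative fates in the airway epithelium, and those of Irx1, Irx2 and Irx3 are Iroquois homeobox factors expressed in the branching lung. NKX2-1, FOXA and GATA6 later bind promoters of surfactant and secretoglobin genes. Several of the 10 genes, Foxp1, Foxp4 and Gata6 among them, are also known from lung mesenchyme.

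The libraries held 6509563 to 9861452 expected counts, that is, estimated counts that share reads between genes. On the first principal component (60.2% of the variance) the 3 fresh libraries lay apart from the 6 cultured ones. Control 1 carried liver transcripts (Alb 63.3 TPM and Afp 112 TPM, against at most 6.14 and 12.3 TPM elsewhere; TPM is abundance per length and depth). Control 3 was low in epithelial genes (Epcam 133 TPM, against 212 and 217 TPM in the other control explants) and high in neuron and glia markers (summed 166 TPM, against 23.6 to 67.6 TPM elsewhere). Xist, transcribed in female cells, was at 210 TPM in EPZ5676 2, 281 and 278 TPM in Control 1 and 2, and under 1 TPM in EPZ5676 1 and 3 and Control 3. Fresh lungs 2 and 3 held both Xist and the Y-linked gene Ddx3y. The mRNA of Dot1l, the target of the inhibitor, did not pass the test between EPZ5676 and control explants (log2 fold change -0.20 ± 0.10 SE, edgeR adjusted p = 0.743).

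The promoter sequences below are shown because Nkx2-1, Foxa2 and Irx2 stand for 3 of the families, all changed in culture, and have a RefSeq start that is also the GENCODE start of the gene. RefSeq promoter entries were found for 7 of the 10 genes, with 11 start sites in all, 3 of which met this rule. Each run holds the 250 bases before the start on the gene's own strand, 5′ to 3′, on GRCm38.p6. Nkx2-1 spans chr12:56531958-56536908 on the minus strand and its window is chr12:56536909-56537158. Foxa2 spans chr2:148042877-148046969 on the minus strand and its window is chr2:148046970-148047219. Irx2 spans chr13:72628820-72634198 on the plus strand and its window is chr13:72628570-72628819, between Irx2 and the noncoding gene Gm20554, which starts 256 bases away on the other strand. Capitals mark every match, on either strand, to the CCAAT box (CCAAT) or the GC box (GGGCGG).
Nkx2-1: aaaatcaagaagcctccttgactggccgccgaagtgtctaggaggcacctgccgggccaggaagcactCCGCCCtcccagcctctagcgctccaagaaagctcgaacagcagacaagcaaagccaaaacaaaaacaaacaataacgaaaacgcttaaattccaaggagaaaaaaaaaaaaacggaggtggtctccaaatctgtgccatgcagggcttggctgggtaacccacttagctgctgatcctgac
Foxa2: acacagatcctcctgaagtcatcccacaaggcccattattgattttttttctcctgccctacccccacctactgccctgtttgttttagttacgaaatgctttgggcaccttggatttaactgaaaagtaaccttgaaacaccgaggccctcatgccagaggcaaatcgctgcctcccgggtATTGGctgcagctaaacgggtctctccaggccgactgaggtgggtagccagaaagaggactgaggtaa
Irx2: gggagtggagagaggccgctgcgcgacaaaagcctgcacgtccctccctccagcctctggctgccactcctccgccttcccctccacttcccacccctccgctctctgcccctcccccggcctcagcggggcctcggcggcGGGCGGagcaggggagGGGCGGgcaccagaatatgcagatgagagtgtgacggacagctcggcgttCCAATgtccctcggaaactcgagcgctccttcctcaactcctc
The Nkx2-1 window held 1 GC box, 176 bases before the start, the Foxa2 window 1 CCAAT box at 63 bases, and the Irx2 window 1 CCAAT box at 38 bases and 2 GC boxes at 103 and 87 bases. Over 32851 RefSeq promoter windows of the same length, 33.8% held a CCAAT box and 32.7% a GC box. None of the 3 windows held the forkhead core TGTTTAC (3.17% of all windows), the NKX2-1 core CAAGTG (11.6%), the GATA core AGATAA (9.99%) or the TATA box TATAAA (12.4%). These motifs do not overlap one another as written. GC content was 50.8% for Nkx2-1, 50.8% for Foxa2 and 68.4% for Irx2, against a median of 52.4% for all windows, with 9, 6 and 19 CpG pairs in that order, against a median of 6. Among the other windows, that of Foxa1 held 1 forkhead core, 134 bases before its RefSeq start. A window at another RefSeq start of Foxa2 held 1 GATA core at 177 bases and 1 TATA box at 202 bases.

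At the start of culture the FOXP genes led the family in TPM. In fresh E11.5 lungs the means ran from Foxp4 (83.8 ± 12.5 TPM, SD, n = 3) over Foxp1, Foxp2, Irx2, Nkx2-1, Gata6, Irx1, Foxa1 and Foxa2 to Irx3 (11.0 ± 2.36 TPM). Neighbours in that order overlapped for Foxp2 and Irx2, Nkx2-1 and Gata6, Irx1 and Foxa1, and Foxa1 and Foxa2, and were separate elsewhere. After 72 h with EPZ5676 the order was Nkx2-1 (88.5 ± 7.06 TPM), Irx2, Foxp4, Foxp2, Foxa2, Foxa1, Irx1, Gata6, Foxp1 and Irx3 (21.7 ± 5.02 TPM), and Nkx2-1 alone was separate from its neighbour. In control explants the order was Irx2 (75.6 ± 11.0 TPM), Nkx2-1, Foxp4, Foxp2, Irx1, Foxa1, Foxa2, Foxp1, Gata6 and Irx3 (25.4 ± 4.86 TPM), and all neighbours overlapped except Foxp4 and Foxp2. Nkx2-1 thus stood at place 5 of 10 in fresh lung, place 1 with EPZ5676 and place 2 in control explants.

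**Figure D1:**
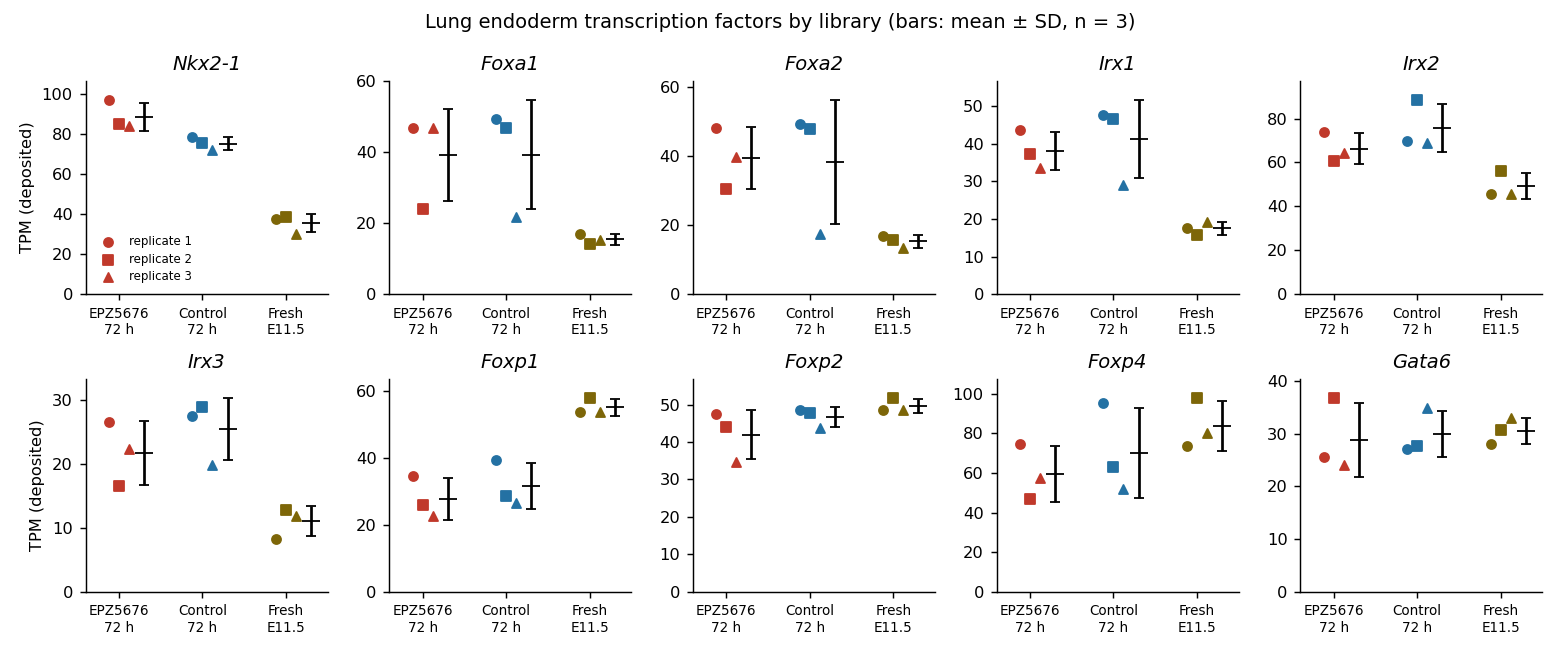
Deposited TPM of the 10 genes in each library (circle, square and triangle for replicates 1, 2 and 3), with the mean ± SD of each group (n = 3) beside the points; the y axes start at 0. Nkx2-1, Foxa1, Foxa2, Irx1, Irx2 and Irx3 lie higher in the cultured explants than in fresh lung, Foxp1 lies lower, and the EPZ5676 and control points of most panels overlap.

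Most of these genes differed between cultured and fresh lung, and none passed the test between EPZ5676 and control explants. EPZ5676 explants differed from control explants in 0 of the 10 genes by edgeR's quasi-likelihood test at an adjusted p of 0.05, as in 0.0% of the 15158 genes tested. DESeq2 also called 0 of the 10, though it did call other genes in this comparison, as given further below. At an unadjusted p of 0.05, 2 of the 10 passed, Foxp1 and Irx2, against 6.94% of all genes. The log2 fold changes were above 0 for 2 genes and below 0 for 8, with a median of -0.20 against -0.0038 for all genes. Control explants against fresh E11.5 lung gave 6 genes higher (21.1% of all genes tested) and 1 lower (16.6%), or 7 changed where 37.7% of all genes did. The median log2 fold change was 0.99, against 0.02 for all genes. In log2 CPM (CPM are counts relative to library size, scaled by TMM), control libraries lay wholly above fresh ones for 6 of the 10 genes (26.5% of all genes) and wholly below for 1 (24.9%). EPZ5676 explants against fresh lung gave 6 higher (22.1% of all genes) and 2 lower (17.9%), or 8 changed where 40.0% of all genes did, with a median of 0.77 against 0.02. EPZ5676 libraries lay wholly above fresh ones for 6 (29.9% of all genes) and wholly below for 3 (27.4%), Foxp1, Foxp2 and Foxp4. The comparisons share samples, so their values are given side by side and are not independent of each other. Marker lists of other cell types also moved in culture. Against fresh lung, 8 of 12 mesenchymal markers were higher and 3 lower with EPZ5676, and 7 higher and 2 lower in controls (medians 0.84 and 0.83), with summed levels of 2920 to 3170 TPM with EPZ5676, 2690 to 3590 TPM in controls and 1610 to 1930 TPM in fresh lung. All 7 leukocyte markers were higher in both cultured groups (medians 2.86 with EPZ5676 and 2.01 in controls). All 11 endothelial markers were lower (medians -2.48 and -2.14), with summed levels of 56.2 to 101 TPM with EPZ5676, 35.7 to 134 TPM in controls and 321 to 351 TPM in fresh lung. Erythroid markers were lower for 8 of 8 with EPZ5676 and 7 of 8 in controls (medians -5.08 and -4.88). The part of these cell types in the values of the 10 genes was not tested. In bulk tissue a larger share of epithelial cells and more RNA per epithelial cell cannot be told apart.

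**Figure D2:**
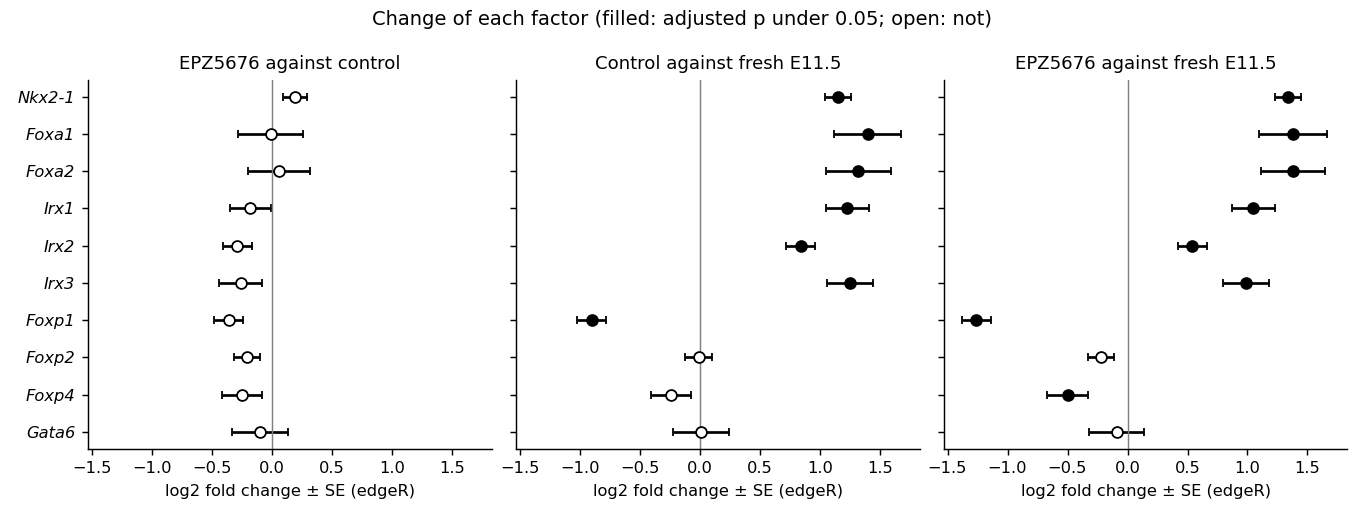
Log2 fold change ± SE of the 10 genes in the 3 comparisons (edgeR, 15158 genes in the fit, filled points for an adjusted p under 0.05). All points are open for EPZ5676 against control, whereas 6 points on the right and 1 (control) or 2 (EPZ5676) on the left are filled against fresh lung.

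Nkx2-1, the gene of the lung primordium, rose in culture and varied little among explants. It had 96.6, 84.8 and 84.0 TPM in EPZ5676 explants 1 to 3, 78.2, 75.4 and 71.7 TPM in control explants, and 37.6, 38.7 and 30.1 TPM in fresh lungs. Every cultured value lay above every fresh one, and every EPZ5676 value lay above every control value in TPM; in log2 CPM EPZ5676 3 fell just below Control 3. Against control explants, EPZ5676 explants differed by 0.19 ± 0.10 (log2 ± SE, edgeR adjusted p = 0.778). Against fresh lung the difference was 1.34 ± 0.11 with EPZ5676 (adjusted p = 1.23e-05) and 1.15 ± 0.11 in control explants (adjusted p = 3.84e-05), a 2.22-fold rise in controls. Over the 6 cultured libraries Nkx2-1 spanned 0.36 on the log2 CPM scale, the smallest range of the 10 genes. Nkx2-1 is also a gene of the thyroid. The thyroid factor genes Pax8 and Foxe1 were at no more than 0.16 TPM and at 0 in every library, and the thyroid list of 6 genes summed to 1.16 to 1.78 TPM with EPZ5676, 0.99 to 1.43 TPM in controls and 1.90 to 3.09 TPM in fresh lung.

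The noncoding transcript Sfta3-ps, which lies 2531 bases downstream of Nkx2-1 on the same strand, rose against fresh lung as well. Its values were 149, 128 and 150 TPM with EPZ5676, 112, 148 and 116 TPM in control explants, and 67.4, 63.3 and 63.6 TPM in fresh lung. The cultured groups overlapped each other and lay above fresh lung, by 1.23 ± 0.11 with EPZ5676 (edgeR adjusted p = 2.68e-05) and 1.02 ± 0.11 in controls (adjusted p = 0.000103). Another transcript, Gm26973, overlaps Nkx2-1 on the opposite strand by 1566 bases, and whether counting used the strand is not known here, so reads of the overlap may have gone to either gene.

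Foxa1 and Foxa2 both rose in culture. Foxa1 had 46.9, 24.1 and 46.8 TPM in EPZ5676 explants, 49.4, 46.9 and 21.7 TPM in control explants, and 16.9, 14.0 and 15.3 TPM in fresh lung. Foxa2 had 48.2, 30.4 and 39.6 TPM in EPZ5676 explants, 49.3, 47.8 and 17.5 TPM in control explants, and 16.9, 15.7 and 13.2 TPM in fresh lung. For both genes all cultured values exceeded all fresh ones, and EPZ5676 2 and Control 3 were the lowest cultured libraries. Foxa1 was higher than in fresh lung by 1.38 ± 0.28 with EPZ5676 (edgeR adjusted p = 0.00418) and 1.40 ± 0.28 in controls (adjusted p = 0.00446). Foxa2 was higher by 1.38 ± 0.27 with EPZ5676 (edgeR adjusted p = 0.00301) and 1.32 ± 0.27 in controls (adjusted p = 0.0042). Without Control 1, the library with liver transcripts, the control values were 1.29 for Foxa1 and 1.19 for Foxa2 (edgeR adjusted p = 0.0211 and 0.0171). EPZ5676 explants differed from controls by -0.01 ± 0.27 for Foxa1 and 0.06 ± 0.26 for Foxa2, neither past the threshold (edgeR adjusted p = 0.995 and 0.977). Their signs depended on single libraries: without Control 3 the values were -0.25 and -0.22, and without EPZ5676 2 they were 0.22 and 0.18.

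The spread of the FOXA genes among explants was wide beside that of Nkx2-1. The coefficient of variation of TPM was 33.5% for Foxa1 and 22.6% for Foxa2 with EPZ5676, and 38.9% and 47.0% in control explants, whereas that of Nkx2-1 was 7.98% with EPZ5676 and 4.35% in controls. Relative to the mean of the 6 cultured libraries on the log2 CPM scale, Foxa1 was at -0.57 in EPZ5676 2 and at -0.57 in Control 3, and Foxa2 at -0.21 and -0.80. The mean of 19 epithelial markers was at -0.09 in EPZ5676 2 and -0.43 in Control 3. Ttc6, which starts 17197 bases from Foxa1 on the opposite strand, was at -0.53 and -0.76 in those libraries. Ttc6 rose against fresh lung by 0.98 ± 0.34 with EPZ5676 (edgeR adjusted p = 0.0425) and 1.24 ± 0.34 in controls (adjusted p = 0.0168). 9030622O22Rik, a noncoding gene 2674 bases from Foxa2, was at -0.79 in EPZ5676 2 and -0.29 in Control 3, and rose against fresh lung in controls (1.43 ± 0.42, edgeR adjusted p = 0.0223) but did not pass with EPZ5676 (0.94 ± 0.43, adjusted p = 0.103). What sets EPZ5676 2 and Control 3 apart was not tested; the pair also differs in Xist, high in EPZ5676 2 and low in Control 3.

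**Figure D3:**
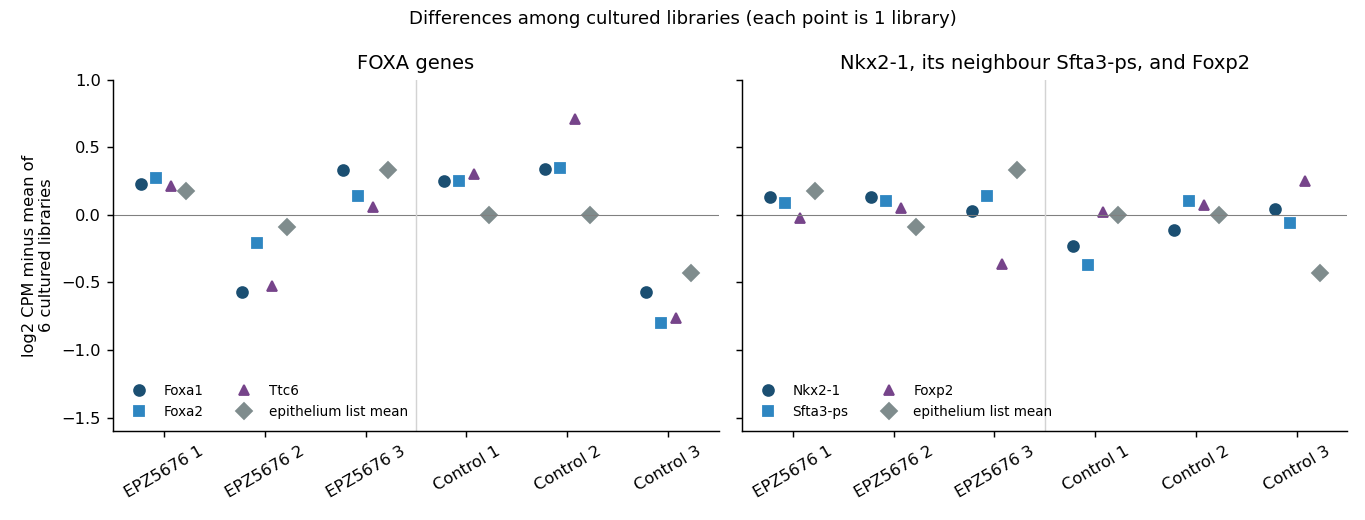
Log2 CPM of each gene minus its mean over the 6 cultured libraries, with each point 1 library, for Foxa1, Foxa2, Ttc6 and the mean of 19 epithelial markers (left) and for Nkx2-1, Sfta3-ps, Foxp2 and the same marker mean (right). Foxa1 drops to -0.57 in both EPZ5676 2 and Control 3, while Nkx2-1 stays between -0.23 and 0.13 in all 6.

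The Iroquois genes Irx1, Irx2 and Irx3 rose in culture. Irx1 had 43.7, 37.4 and 33.7 TPM with EPZ5676, 47.7, 46.7 and 29.1 TPM in control explants, and 17.7, 15.6 and 19.2 TPM in fresh lung. Irx2 had 74.1, 60.6 and 64.3 TPM with EPZ5676, 69.7, 88.3 and 68.9 TPM in control explants, and 45.7, 56.0 and 45.8 TPM in fresh lung. Irx3 had 26.5, 16.5 and 22.3 TPM with EPZ5676, 27.5, 28.8 and 19.8 TPM in control explants, and 8.27, 12.7 and 11.9 TPM in fresh lung. Each cultured group lay wholly above fresh lung for each of these genes, and the cultured groups overlapped each other. Irx1 rose against fresh lung by 1.05 ± 0.18 with EPZ5676 (edgeR adjusted p = 0.000995) and 1.23 ± 0.18 in controls (adjusted p = 0.000453). Irx3 rose by 0.99 ± 0.19 (edgeR adjusted p = 0.00211) and 1.25 ± 0.19 (adjusted p = 0.000626) in those comparisons. Irx2 rose by 0.54 ± 0.12 with EPZ5676 (edgeR adjusted p = 0.0049) and 0.84 ± 0.12 in controls (adjusted p = 0.000476). Set against control explants, EPZ5676 explants gave -0.18 ± 0.17 for Irx1, -0.29 ± 0.12 for Irx2 and -0.26 ± 0.18 for Irx3 (edgeR adjusted p = 0.898, 0.671 and 0.849). With limma-trend on log2(TPM + 1) the values were -0.08 for Irx1 and -0.18 for Irx2. Irx1 ranged from -0.32 without Control 3 to -0.09 without Control 1, and Irx3 was -0.12 without EPZ5676 2 and -0.16 without Control 2.

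The Iroquois genes lie in clusters, with 665 kb between Irx1 and Irx2 on chromosome 13 and 556 kb between Irx3 and its paralog Irx5 on chromosome 8. Irx5 had 18.4, 8.71 and 14.4 TPM with EPZ5676, 18.1, 16.8 and 10.3 TPM in control explants, and 6.84, 4.72 and 4.67 TPM in fresh lung. It rose by 1.35 ± 0.26 with EPZ5676 (edgeR adjusted p = 0.00206) and 1.51 ± 0.26 in controls (adjusted p = 0.00127) over fresh lung, with no overlap. The other genes of these clusters were not part of the rise: Irx4 was at 0 TPM in every library and Irx6 at no more than 0.08 TPM. Gm20554, the noncoding neighbour whose start faces that of Irx2 across the printed window, rose by 0.98 ± 0.29 with EPZ5676 (edgeR adjusted p = 0.0211) and 0.97 ± 0.29 in controls (adjusted p = 0.0233). Irx3os overlaps Irx3 by 1653 bases on the opposite strand and rose by 1.38 ± 0.49 with EPZ5676 (edgeR adjusted p = 0.0439) and 1.87 ± 0.48 in controls (adjusted p = 0.0105), at 1.62 ± 0.327 TPM, 2.02 ± 0.841 TPM and 0.56 ± 0.377 TPM in EPZ5676, control and fresh libraries (SD, n = 3 each). Whether counting used the strand is not known, so reads from the overlap may have gone to either gene, while reads outside it are not affected.

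Among the forkhead repressors, Foxp1 fell in culture and Foxp2 did not pass the test in any comparison. Foxp1 had 34.7, 25.9 and 22.6 TPM with EPZ5676, 39.4, 28.7 and 26.5 TPM in control explants, and 53.7, 57.9 and 53.7 TPM in fresh lung. All cultured values lay below all fresh ones. It fell by 1.26 ± 0.12 on the log2 scale with EPZ5676 (edgeR adjusted p = 3.26e-05) and by 0.90 ± 0.12 in controls (adjusted p = 0.000292). EPZ5676 explants differed from control explants by -0.36 ± 0.12 (edgeR adjusted p = 0.542), and by -0.18 with limma-trend on log2(TPM + 1). For Foxp1 all EPZ5676 libraries lay below all control libraries in log2 CPM, as they did for 4.45% of all genes tested, but the groups overlapped in TPM.

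Foxp4 passed the test in 1 comparison, with EPZ5676 against fresh lung. Foxp2 had 47.4, 44.0 and 34.6 TPM with EPZ5676, 48.5, 47.7 and 43.7 TPM in control explants, and 48.5, 51.7 and 48.6 TPM in fresh lung. Its differences were -0.21 ± 0.11 between EPZ5676 and control explants, -0.22 ± 0.11 between EPZ5676 explants and fresh lung, and -0.01 ± 0.11 between control explants and fresh lung (edgeR adjusted p = 0.771, 0.145 and 0.971), the last of which turned to 0.01 with no filter on low counts and to 0.04 without Control 1. Without EPZ5676 3 the first was -0.10 and the second -0.11. Foxp4 had 74.6, 46.6 and 57.6 TPM with EPZ5676, 95.5, 63.2 and 51.8 TPM in control explants, and 73.6, 97.8 and 80.1 TPM in fresh lung. The Foxp4 groups overlapped in TPM. Its value was -0.25 ± 0.17 between EPZ5676 and control explants (edgeR adjusted p = 0.844), -0.50 ± 0.17 between EPZ5676 explants and fresh lung (adjusted p = 0.0439) and -0.24 ± 0.17 between control explants and fresh lung (adjusted p = 0.302). Between EPZ5676 and control explants Foxp4 ranged from -0.40 without EPZ5676 1 to -0.08 without Control 1, and between control explants and fresh lung from -0.41 without Control 1 to -0.12 without E11.5 2. The Foxp4 call was lost without EPZ5676 2 (edgeR adjusted p = 0.14), EPZ5676 3 (0.102), E11.5 2 (0.151) or E11.5 3 (0.0793).

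The 2 deposited scales differed for Foxp1, and together they implied a different transcript length in each group. Expected counts divided by TPM give the average length of the transcripts to which reads were assigned, scaled here on 592 genes with a single annotated transcript, whose implied length had a median coefficient of variation of 0.12% between libraries. For genes with several transcripts, as Foxp1 is, that median was 5.05%. This measure was chosen after the Foxp1 values were seen. For Foxp1, with 31 annotated transcripts of 336 to 7177 bases, the implied length was 4449, 4381 and 4807 bases with EPZ5676, 4998, 5029 and 5027 bases in control explants, and 5347, 5720 and 5318 bases in fresh lung. The groups did not overlap in any pair. The ratio of means was 0.91 between EPZ5676 and control explants, 0.92 between control explants and fresh lung and 0.83 between EPZ5676 explants and fresh lung, each with an exact two-sided permutation p of 0.1, the smallest that 3 against 3 allows. Over 8785 genes with several transcripts, groups without overlap and shorter made up 4.95%, 8.97% and 9.81% in those comparisons, and a smaller ratio was found in 4.74%, 6.04% and 1.08% of genes. RSEM assigns reads to annotated transcripts by estimation, so these lengths are estimates, not observed molecules. Their scale is approximate, as Foxa1 came out at up to 3233 bases, above its longest annotated transcript of 3191 bases. Irx2, with 5 annotated transcripts, had 1268, 1287 and 1231 bases with EPZ5676, 1371, 1289 and 1305 bases in control explants, and 1251, 1115 and 1180 bases in fresh lung. Its implied length was thus longest in control explants, while Foxp2 and Foxp4 groups overlapped between EPZ5676 and control explants. In that comparison the Irx2 ratio was 0.95, and a smaller ratio was found in 14.4% of genes. Irx3 was also shorter without overlap (means of 2743 and 2753 bases), with a smaller ratio in 43.6% of genes.

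**Figure D4:**
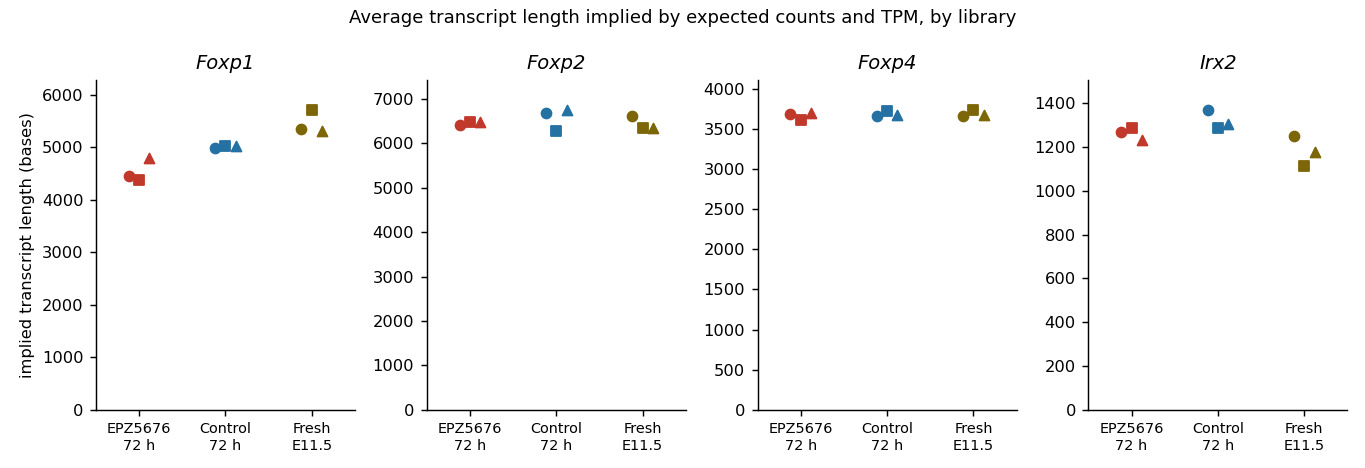
Average transcript length in bases implied by expected counts and TPM in each library (circle, square and triangle for replicates 1, 2 and 3) for Foxp1, Foxp2, Foxp4 and Irx2; the y axes start at 0. For Foxp1 the EPZ5676 libraries (4381 to 4807 bases) lie below the control libraries (4998 to 5029 bases), which lie below fresh lung (5318 to 5720 bases).

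Gata6 did not pass the test in any comparison. It had 25.6, 36.8 and 24.0 TPM with EPZ5676, 27.1, 27.7 and 35.0 TPM in control explants, and 28.0, 30.7 and 32.9 TPM in fresh lung. All groups overlapped. Among the 6 cultured libraries, Gata6 was highest in EPZ5676 2 and Control 3, which were the lowest of the 6 in Foxa1. The differences were -0.10 ± 0.23 between EPZ5676 and control explants, -0.09 ± 0.23 between EPZ5676 explants and fresh lung and 0.01 ± 0.23 between control explants and fresh lung (edgeR adjusted p = 0.956, 0.792 and 0.974), and all of these changed sign with the library left out, the last also with other scalings. Without Control 3 the first was 0.16 and the last -0.24, and without EPZ5676 1 the second was 0.04. Its paralog Gata4, a factor of heart and mesothelium, was at 4.83, 7.05 and 3.29 TPM with EPZ5676, 13.3, 5.25 and 7.86 TPM in control explants, and 20.6, 32.9 and 31.7 TPM in fresh lung. Gata4 fell by 2.41 ± 0.36 on the log2 scale with EPZ5676 (edgeR adjusted p = 0.000647) and by 1.83 ± 0.35 in controls (adjusted p = 0.00275). Gata5 did not pass against fresh lung (-0.58 ± 0.36 with EPZ5676, edgeR adjusted p = 0.233, and -0.90 ± 0.36 in controls, adjusted p = 0.0828). Summed over 8 heart muscle markers, TPM were 78.8 to 91.2 with EPZ5676, 52.0 to 220 in controls and 49.9 to 112 in fresh lung, and over 6 mesothelial markers 48.0 to 90.9, 28.6 to 34.4 and 46.0 to 55.9, with EPZ5676 2 highest. Their part in the GATA values was not tested.

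Set against general epithelial markers, all 10 genes were lower in cultured explants than in fresh lung by their means, as most genes in the table were. The list of 19 markers (Epcam, Cdh1, keratins, claudins and others) had all 19 genes higher than in fresh lung with EPZ5676 (median log2 fold change 1.78) and all 19 in controls (median 1.52). With EPZ5676 against control explants, 17 of the 19 were above 0 with none past the threshold (median 0.26). When the mean log2 CPM of the list was subtracted in each library, all 10 genes were lower in mean in every comparison. The share of all genes that were lower in mean was not computed. Between EPZ5676 and control explants the median log2 fold change over all genes was -0.0038, below that of the markers, so a typical gene is lower too. The same holds against fresh lung, where that median was 0.02 for both cultured groups. For Nkx2-1 the log2 ratio was 1.18, 1.46 and 0.94 with EPZ5676, 1.02, 1.13 and 1.71 in control explants, and 1.85, 1.94 and 1.58 in fresh lung. For Foxp1 it was 0.63, 0.62 and 0.07 with EPZ5676, 1.11, 0.83 and 1.34 in control explants, and 3.54, 3.80 and 3.58 in fresh lung. Against fresh lung all 10 genes were lower without overlap with EPZ5676, where 89.6% of all genes were, and 8 of 10 in controls, where 86.6% were, so those counts are near the background. The sizes ran from -0.58 for Foxa2, -0.60 for Nkx2-1 and -0.61 for Foxa1 to -2.06 for Gata6, -2.17 for Foxp2, -2.44 for Foxp4 and -3.20 for Foxp1 with EPZ5676 against fresh lung. Foxp1, Foxp4 and Gata6 are also known from lung mesenchyme, so for them this ratio need not reflect levels within the epithelium. EPZ5676 explants lay below control explants without overlap for Foxp1 (-0.65), Foxp4 (-0.54), Irx1 (-0.46) and Irx3 (-0.56), or 4 of 10, against 14.6% of all genes. For these an exact two-sided permutation test gave p = 0.1, and 0.25 after adjustment over the 10 genes. As 0.1 is the smallest possible p, no gene could pass, and the test decides nothing here.

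**Figure D5:**
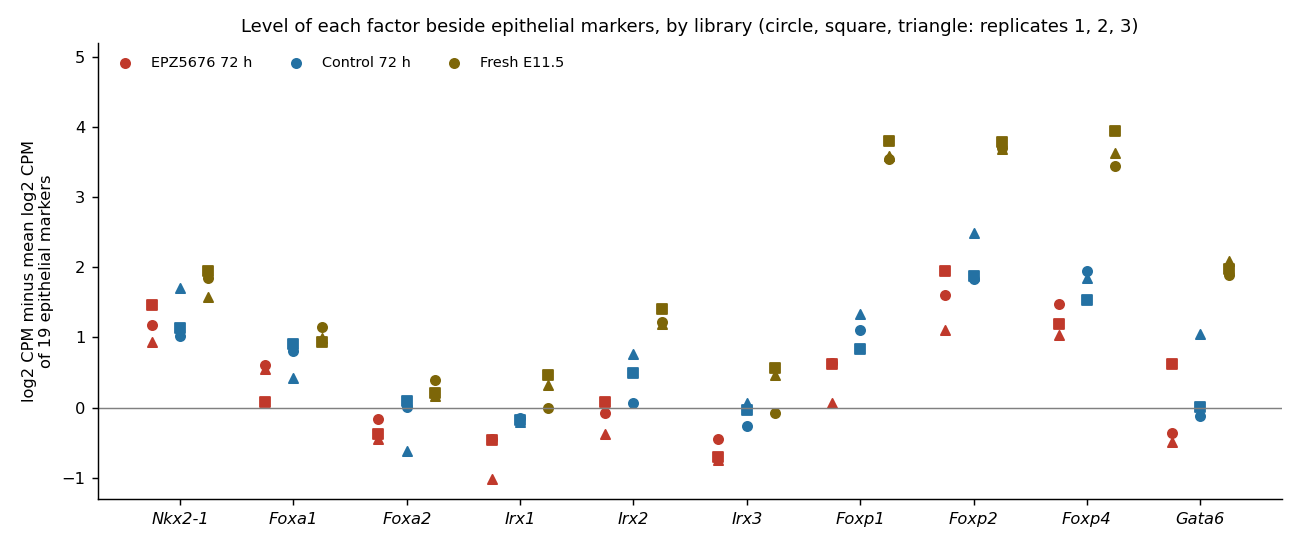
Log2 CPM of each gene minus the mean log2 CPM of 19 epithelial markers, by library (circle, square and triangle for replicates 1, 2 and 3), with EPZ5676, control and fresh lung side by side. The distance between fresh and cultured libraries is small for Nkx2-1, Foxa1 and Foxa2 and large for Foxp1, Foxp2, Foxp4 and Gata6.

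Pairs of these genes were compared for unequal change, and none passed after adjustment. For 16 pairs, the log2 ratio of a gene to another was compared between groups. Nkx2-1 is in 9 of the 16 pairs, so they are not independent, and the share among gene pairs at large was not computed. The counts of pairs without overlap therefore cannot be read as particular to these genes. Against fresh lung, 8 pairs did not overlap with EPZ5676 and 8 in controls, with Nkx2-1 gaining on Foxp1 by 2.60 with EPZ5676 and by 2.05 in controls. Foxp1 lost against Foxp2 by -1.03 with EPZ5676 and -0.89 in controls, without overlap. The ratio of Foxa1 to Foxa2 overlapped in all comparisons, with changes of -0.14 between EPZ5676 and control explants, -0.03 between EPZ5676 explants and fresh lung and 0.11 between control explants and fresh lung. For EPZ5676 against control explants 3 pairs did not overlap: Nkx2-1 was higher relative to Foxp1 by 0.56, to Foxp2 by 0.42 and to Irx2 by 0.48. The exact two-sided permutation p cannot go below 0.1, and the lowest p adjusted over the 16 pairs was 0.533 for EPZ5676 against control explants and 0.2 for each comparison with fresh lung.

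Likeness of pattern was measured as the root mean square difference of centred log2 CPM over the 9 libraries, among the 15158 genes tested. These 9 points share their groups, so the measure follows the step between fresh and cultured libraries as well as the spread within groups. The gene nearest to Foxa1 was Foxa2 (0.16), followed by Tyro3 (0.17) and Irx5 (0.17). Foxa2 was nearest to Lad1 (0.13) and Nipal2 (0.15), with Foxa1 in place 3. Irx3 was nearest to Adcy9 (0.15) and Sort1 (0.16), with Irx1 in place 3 (0.17), and Irx3 was in place 8 for Irx1, whose nearest gene was Zdhhc23. For Nkx2-1 the nearest genes were Smim14 (0.095), Vamp8 (0.10) and Cmtm8 (0.13), and its nearest member, Irx1, was in place 642. Foxp1 was nearest to Igf2bp3 (0.093), Foxp2 to Smad2 (0.064), Foxp4 to Sbk1 (0.071), Gata6 to Pole2 (0.087) and Irx2 to Fbln1 (0.11).

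Other transcription factors of the lung epithelium had a larger median change in culture than the 10 genes, a difference that was not tested. Of 22 tested, 15 were higher and none lower with EPZ5676 than in fresh lung (median 2.10), and 12 were higher and none lower in controls (median 1.73). Of all genes tested, 22.1% were higher and 17.9% lower with EPZ5676, and 21.1% higher and 16.6% lower in controls. The ETS factor gene Ehf rose by 7.83 ± 0.76 with EPZ5676 and 6.09 ± 0.83 in controls, and Elf5 by 4.75 ± 0.39 and 4.05 ± 0.40 (edgeR adjusted p at most 0.000462). In fresh lung Ehf had 0.13, 0 and 0 TPM and Elf5 2.24, 0.94 and 0.99 TPM, so the size for Ehf rests on values near 0. Ehf passed the count filter through the cultured groups. Klf5, of the Krüppel-like family, rose by 3.94 ± 0.35 with EPZ5676 (edgeR adjusted p = 2.84e-05) and 3.62 ± 0.35 in controls (adjusted p = 6.12e-05). In EPZ5676 against control explants 15 of the 22 were above 0 and none passed. The smallest p was for Foxj1, the ciliated cell regulator, at 20.8, 6.72 and 34.3 TPM with EPZ5676, 1.79, 1.95 and 0.33 TPM in controls, and 0.09, 0.57 and 0.19 TPM in fresh lung. Its EPZ5676 and control libraries did not overlap, and the difference was 3.90 ± 0.67 (edgeR adjusted p = 0.179).

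Of 15 genes listed as known targets of NKX2-1, FOXA and GATA6 factors, 10 were tested. Sftpd, Scgb1a1, Scgb3a1, Napsa and Agr2 were too low for the count filter. In fresh lung Scgb3a2 had 2, 0 and 0 expected counts and Lamp3 1, 5.01 and 1, so both passed the filter through the cultured groups. The shares and medians against fresh lung cover the tested genes only, and this selection can raise them. Against fresh lung 7 of these were higher with EPZ5676 (median 2.92, where 22.1% of all genes were higher) and 8 in controls (median 2.25, 21.1% of all genes), and none was lower. Sftpc, surfactant protein C, had 501, 1445 and 691 TPM with EPZ5676, 142, 372 and 1111 TPM in control explants, and 16.8, 8.93 and 14.3 TPM in fresh lung. It rose by 6.05 ± 1.11 with EPZ5676 (edgeR adjusted p = 0.00606) and 5.48 ± 1.09 in controls (adjusted p = 0.00915), and was highest in EPZ5676 2 and Control 3, which among the 6 cultured libraries were the lowest in Foxa1. Scgb3a2, a secretoglobin of airway secretory cells, had 356, 172 and 579 TPM with EPZ5676, 23.3, 59.0 and 47.4 TPM in control explants, and 1.19, 0 and 0 TPM in fresh lung. The groups did not overlap, and the EPZ5676 and control explants differed by 3.04 ± 0.53 (edgeR adjusted p = 0.197). None of the 10 tested targets passed between EPZ5676 and control explants, and 8 were above 0 (median 0.33). At an unadjusted edgeR p of 0.05, 5 of the 10 passed, against 6.94% of all genes. Scgb3a2 and Sftpa1 had the smallest p, and Fzd2, also among the 5, was lower (-0.27 ± 0.10).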

How the data were processed

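RNA-seq libraries from 9 mouse lung samples were analysed in 3 groups of 3. Per the labels' protocols, TRIzol was used for RNA and a Vazyme VAHTS Universal V8 kit for libraries. RSEM, Bowtie2 and mm10 are named, without versions, per the submitters' processing notes. The authors deposited expected counts, which are estimated per gene and need not be whole (12.5% to 15.3% were not), and TPM, scaled by transcript length and depth. Whether counting used the strand is not given in the sources. All 55286 gene identifier and symbol pairs matched GENCODE M21 (GRCm38), the source of positions.

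Expected counts were rounded. Genes were filtered with filterByExpr (minimum count 10), leaving 15158, scaled by TMM and fitted by group over all 9 libraries with edgeR 4.0.16 in R 4.3.3 (robust quasi-likelihood F test, 6 residual degrees of freedom, two-sided). P-values were adjusted by Benjamini-Hochberg over all genes tested, with a threshold of 0.05. SE values come from the F statistic, and log2 CPM had a prior count of 2. Scripts were tested on simulated data. Exact permutation tests used SciPy 1.17.1. Totals of 6509563 to 9861452 counts limit precision for genes of low expression. No pair of replicates agreed within sampling noise (chi-square over degrees of freedom 2.63 to 31).

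The 10 genes, the gene lists and the tests were chosen with earlier results of these data known. Named genes were the 10 genes, their paralogs, genes within 50 kb, the 3 genes nearest in pattern to each, and up to 4 passed genes (or 2 of smallest p) per list; the text gives a selection. Sequences came from RefSeq (GRCm38.p6); no genome sequence was used. Alternatives were DESeq2 1.42.0, upper-quartile and RLE scaling, no filter, at least 50 counts in 3 libraries, a fit to 6 libraries, a replicate block, limma-trend (limma 3.58.1) on log2(TPM + 1) and log2(TPM + 0.1), Xist as a covariate, leaving out each library, and, chosen after seeing the data, a newer quasi-likelihood method.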

Additional observations from a re-analysis of the deposited data

How the results depend on the processing

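The number of the 10 genes past the threshold was 0 between EPZ5676 and control explants and 7 between control explants and fresh lung under every alternative run, and 7 or 8 between EPZ5676 explants and fresh lung. The gene that dropped out was Foxp4, with an adjusted p of 0.0686 with no filter on low counts, 0.114 with limma-trend on log2(TPM + 1), 0.118 with a pseudocount of 0.1, and 0.112 with Xist as a covariate. Over all genes, 0 passed between EPZ5676 and control explants, against 83 with DESeq2 (67 higher, 16 lower), 76 with no filter on low counts (67 higher, 9 lower) and 0 to 26 when a library was left out (26 without EPZ5676 2). With the replicate block the count was 1. Deviations of EPZ5676 and control libraries of the same number correlated at r = 0.457 for number 1, but at 0.079 for number 2 and -0.047 for number 3, so the numbers were not taken as pairs, and the block changed no count for the 10 genes.

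Signs changed for values near 0, none of them past the threshold. For Foxa1 between EPZ5676 and control explants the value of -0.01 became 0.007 with upper-quartile scaling, 0.022 and 0.023 with limma-trend (pseudocounts of 1 and 0.1), and 0.046 with Xist as a covariate, and ranged from -0.246 to 0.216 without 1 library. In that comparison Foxa2 ranged from -0.223 to 0.245 and Gata6 from -0.37 to 0.162 without 1 library. With Epcam, Cdh1 and Cldn6 as the only epithelial markers, the ratio became 0.073 for Nkx2-1 and 0.011 for Foxa2, and that of Nkx2-1 ranged from -0.226 to 0.12 without 1 library. Between control explants and fresh lung, Foxp2 became 0.011 with no filter and ranged from -0.073 to 0.043 without 1 library. Gata6 became -0.003 with RLE scaling, -0.007 with upper-quartile scaling, -0.001 with DESeq2, -0.002 with the replicate block, -0.035 and -0.036 with limma-trend and -0.017 with Xist as a covariate, and ranged from -0.245 to 0.161 without 1 library. Between EPZ5676 explants and fresh lung Gata6 ranged from -0.355 to 0.044. The causes were not tested. The biological coefficient of variation, which limits what a group of 3 libraries can show, was 18.8% with EPZ5676, 24.5% in controls and 10.9% in fresh lung.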

Other observations

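Signals that specify the lung, genes that act with them, and transcription factors such as Tbx5, Osr1 and Osr2 were measured as a list of 15 genes. Against fresh lung 3 were higher and 3 lower with EPZ5676 (median log2 fold change 0.56), near the 22.1% and 17.9% of all genes, and 5 higher and 4 lower in controls (median 0.40), where 21.1% and 16.6% of all genes were. Osr1, a factor of foregut mesenchyme, had 24.2, 24.2 and 14.7 TPM with EPZ5676, 32.9, 23.6 and 23.0 TPM in control explants, and 74.7, 79.6 and 65.5 TPM in fresh lung. Osr1 fell against fresh lung by 1.78 ± 0.18 on the log2 scale with EPZ5676 (edgeR adjusted p = 4.6e-05) and by 1.43 ± 0.18 in controls (adjusted p = 0.000191). Its relative Osr2 rose by 4.48 ± 0.83 with EPZ5676 (edgeR adjusted p = 0.00208) and by 4.66 ± 0.82 in controls (adjusted p = 0.00187). Tbx5, a mesenchymal T-box gene of the lung field, had 47.5, 41.7 and 36.1 TPM with EPZ5676, 62.0, 55.8 and 57.0 TPM in control explants, and 80.9, 111 and 94.3 TPM in fresh lung. The Tbx5 groups did not overlap, and it fell against fresh lung by 1.31 ± 0.12 with EPZ5676 (edgeR adjusted p = 2.41e-05) and by 0.82 ± 0.12 in controls (adjusted p = 0.000414). Between EPZ5676 and control explants it differed by -0.49 ± 0.12 and Tbx4 by -0.46 ± 0.12, neither past the threshold (edgeR adjusted p = 0.291 and 0.331), with all EPZ5676 libraries below all control libraries for both.

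The cultured libraries with high Xist were EPZ5676 2 and Control 1 and 2, and those with low Xist EPZ5676 1 and 3 and Control 3. Within these classes, each with 1 library on a side and so with no test, EPZ5676 minus control in log2 CPM had the same sign in both classes for 3 of the 10 genes: Nkx2-1 (0.30 and 0.04), Foxp1 (-0.44 and -0.30) and Irx2 (-0.28 and -0.32). It was -0.86 in the high class and 0.85 in the low class for Foxa1, -0.51 and 1.00 for Foxa2, and 0.59 and -0.79 for Gata6. The class and the single libraries in it cannot be told apart.

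Within 50 kb of the 10 genes the annotation placed 27 other genes, of which 9 were tested. Between EPZ5676 and control explants 0 of them passed by edgeR, and against fresh lung 7 passed with EPZ5676 and 6 in controls, where 40.0% and 37.7% of all genes did. Mdfi, 32442 bases from Foxp4 on the same strand, rose by 0.52 ± 0.16 with EPZ5676 (edgeR adjusted p = 0.0259) and 0.69 ± 0.16 in controls (adjusted p = 0.00753), while Foxp4 did not rise. The noncoding gene 1010001N08Rik, which overlaps Gata6 by 504 bases on the opposite strand, fell by 1.14 ± 0.29 on the log2 scale with EPZ5676 (edgeR adjusted p = 0.01) and did not pass in controls (-0.44 ± 0.28, adjusted p = 0.24).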
